A study of Mus musculus with 4 samples.

Results

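The surface markers used to sort early B cells into Hardy fractions were examined as transcripts. Of the 55573 gene identifiers in the data, 10 were chosen by name. They are Ptprc (B220), Spn (CD43), Cd24a (heat stable antigen, HSA), Enpep (BP-1), Bst1 (BP-3), Kit, Flt3, Il2ra (CD25), Cd93 and Cd2, and all 10 were found. RNA had been sequenced from B cells sorted out of bone marrow as Fr.C+C'. All mice were C57BL/6 and 8 to 12 weeks old. The 2 libraries labelled ADAR1 KO are called KO 1 and KO 2, and the 2 wild type libraries WT 1 and WT 2. ADAR1 edits adenosine to inosine in double-stranded RNA. The labels do not say which cells lost Adar, by which deleter, or whether a group's libraries are from different mice. P-values therefore rest on the variation among these libraries, part or all of which may be technical.

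In the Hardy scheme, B220+ CD43+ bone marrow cells are divided by HSA and BP-1. Fraction A lacks both, fraction B has gained HSA, and fractions C and C' carry both, with the highest HSA in C'. CD43 is then lost as cells become small pre-B cells, which carry CD25 and CD2. Kit and Flt3 are growth factor receptors of earlier progenitors and are turned down as the B lineage programme is established.

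Values were FPKM, in which a gene's fragments are divided by its exon length and by the library's depth, so that levels can be compared between genes. Between an estimated 15122500 and 16413500 fragments per library were assigned to genes. Adar stood at 15.19 and 16.79 FPKM in KO 1 and KO 2, against 15.04 and 14.62 FPKM in WT 1 and WT 2, and a value over the whole gene does not check a deletion of some exons. Spearman's rho across genes was 0.954 between KO 1 and KO 2 and 0.98 between WT 1 and WT 2. KO 1 was as close to the WT libraries, at 0.955 with WT 1 and 0.957 with WT 2, as to KO 2. KO 2 stood furthest from the other libraries, at 0.92 and 0.913 with the WT libraries. The B-lineage check list was detected in full, with summed levels of 1364.7 and 734 FPKM in KO 1 and KO 2, against 1608.4 and 1658.3 FPKM in WT 1 and WT 2. Its median difference from the WT mean was -0.04 for KO 1 and -0.95 for KO 2 in log2 units. Much of the lower KO 1 sum was Cd79a, at 193.59 FPKM in KO 1 against 436.24 and 435.96 FPKM in WT 1 and WT 2. Fewer cells of a type and less RNA per cell cannot be told apart in bulk libraries such as these. Neutrophil markers, which a B cell sort should leave near 0, summed to 36097.8 and 73742.7 FPKM in KO 1 and KO 2, against 27646.1 and 25787.8 FPKM in WT 1 and WT 2, and all 14 were positive in KO minus WT.

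No marker of the 10 passed the test between the groups. The test was limma on log2(FPKM + 1) for the 13281 genes whose mean reached 1 FPKM in KO or in WT, with Benjamini-Hochberg adjustment and a threshold of 0.05, and it called 0.203% of all genes, each of them lower in KO. The markers' adjusted p-values ran between 0.294 and 0.901. At an unadjusted p under 0.05 there were 3 markers (Bst1, Cd24a and Il2ra) and 12.5% of all genes, and voom on estimated fragments also called 0 markers. The smallest p of an exact permutation test on such groups is 0.33. KO and WT libraries did not overlap for 5 of the 10 markers, a share near the 51.4% of all genes. Bst1 and Flt3 were above both WT libraries in both KO libraries, and Cd24a, Il2ra and Cd93 below. The median log2 change was -0.01 over the 10 markers and -0.09 over all genes tested.

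**Figure D1:**
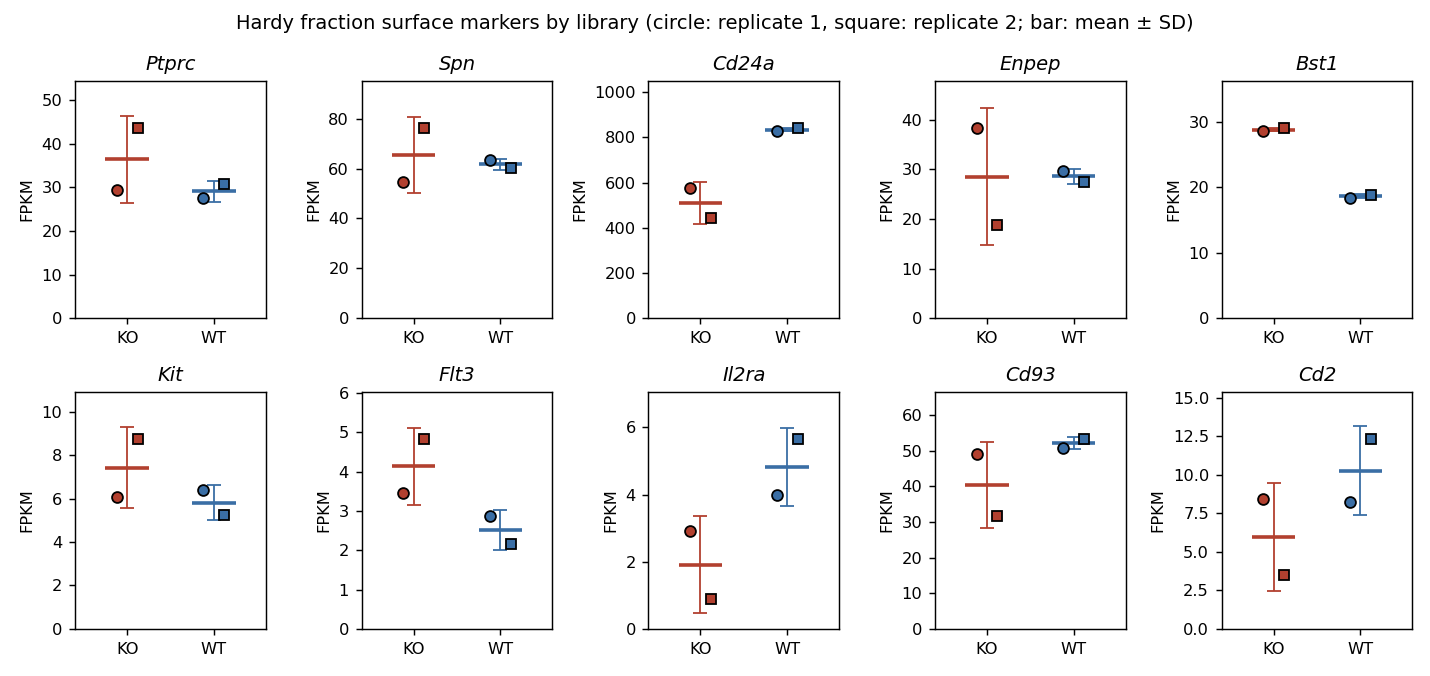
FPKM of each of the 10 surface markers (vertical axes, each starting at 0) in the KO and WT libraries, with circles for replicate 1, squares for replicate 2, and bars for the mean ± SD (n = 2). Bst1 separates the groups with little spread, at 28.66 and 28.99 FPKM in KO against 18.41 and 18.88 FPKM in WT, while Enpep, Cd93 and Cd2 differ mostly between KO 1 and KO 2.

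The gating markers B220, CD43, HSA and BP-1 were all expressed at 18.7 FPKM or more in every library, and only for HSA did both KO libraries lie on one side of both WT libraries. Ptprc (ENSMUSG00000026395, GRCm38 chromosome 1, 138062861 to 138175708, minus strand) encodes the receptor phosphatase CD45, of which B220 is the large isoform of B cells. Its level was 29.32 and 43.52 FPKM in KO 1 and KO 2, against 27.46 and 30.8 FPKM in WT 1 and WT 2. KO 2 was the highest library and KO 1 lay between the WT libraries, so the groups overlapped. The log2 change was 0.29 ± 0.22 (SE, adjusted p = 0.564, limma). A value over the whole gene also takes in CD45 of other blood cells. The neutrophil list too was highest in KO 2, at 73742.7 FPKM, and its part in the Ptprc values was not tested.

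The B220 form retains variable exons that other CD45 forms skip, and a value over the whole gene does not separate them. In the annotation, exons 4, 5 and 6 of the longest coding transcript (Ptprc-207) are each left out of at least 1 of the 5 coding transcripts. They are shown because they distinguish the isoform that the sort reads from the gene that was counted. They lie on the minus strand of GRCm38 chromosome 1 at 138122456 to 138122584, 138120020 to 138120166 and 138117754 to 138117894, all 3 coding, and are given 5′ to 3′ from the GENCODE M21 transcript.
Ptprc exon 4: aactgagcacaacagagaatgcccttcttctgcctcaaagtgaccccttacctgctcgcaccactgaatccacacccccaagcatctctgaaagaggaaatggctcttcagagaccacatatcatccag
Ptprc exon 5: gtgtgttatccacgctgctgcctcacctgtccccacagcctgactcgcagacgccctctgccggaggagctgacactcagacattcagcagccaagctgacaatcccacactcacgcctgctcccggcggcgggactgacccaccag
Ptprc exon 6: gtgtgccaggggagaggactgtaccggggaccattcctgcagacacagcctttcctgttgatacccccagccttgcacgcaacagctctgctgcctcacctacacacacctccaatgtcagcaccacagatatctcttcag
Together these exons hold 417 bases, 8.22% of that transcript and 2.28% of the 18313 bases over which the gene's fragments were scaled. Those 18313 bases are 3.61 times the length of the longest coding transcript, 5074 bases, because the union of all annotated exons was used. If every Ptprc fragment came from that transcript, its level per kilobase would be 106 and 157 in KO 1 and KO 2, against 99.1 and 111 in WT 1 and WT 2, in place of the FPKM above. The fold between libraries is the same on either scale.

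Spn (ENSMUSG00000051457, chromosome 7, 127132232 to 127137823, minus strand) encodes CD43, a heavily glycosylated mucin of leukocytes whose surface form separates pro-B from small pre-B cells. It stood at 54.55 and 76.1 FPKM in KO 1 and KO 2, against 63.36 and 60.2 FPKM in WT 1 and WT 2. KO 1 was the lowest library and KO 2 the highest, with both WT libraries between them. The log2 change was 0.06 ± 0.20 (SE, adjusted p = 0.889, limma).

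Cd24a (ENSMUSG00000047139, chromosome 10, 43578284 to 43584265, plus strand) encodes HSA, a small lipid-anchored sialoglycoprotein that is also abundant on erythroid cells and neutrophils. It was the most abundant of the 10 markers in every library, with 576.02 and 444.83 FPKM in KO 1 and KO 2, against 829.95 and 839.49 FPKM in WT 1 and WT 2. Both KO libraries were below both WT libraries, by more than the KO libraries differed from each other. The means were 510 ± 92.8 FPKM in KO and 835 ± 6.75 FPKM in WT (SD, n = 2), a fold of 0.611. The log2 change was -0.72 ± 0.23 (SE, 95% interval -1.32 to -0.13) and the adjusted p was 0.37 in limma. Without KO 1 the adjusted p was 0.049 in limma, in a comparison in which 2.88% of all genes were called lower and 4.21% higher. That fit sets KO 2 alone against the WT libraries and assumes that the lone KO library varies as the WT pair does. Without KO 2, under the same assumption for KO 1, the adjusted p was 0.278 (limma). The erythroid list, whose cells also carry HSA, was at 401 and 701 FPKM in KO 1 and KO 2, against 1398.6 and 853 FPKM in WT 1 and WT 2. The neutrophil list went the other way. It was at 36097.8 and 73742.7 FPKM in KO 1 and KO 2, against 27646.1 and 25787.8 FPKM in WT 1 and WT 2. The part of these cells in the Cd24a values was not tested.

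Enpep (ENSMUSG00000028024, chromosome 3, 129269175 to 129332720, minus strand) encodes BP-1, the aminopeptidase A whose appearance marks the step into fraction C. Its level was 38.23 and 18.7 FPKM in KO 1 and KO 2, against 29.69 and 27.51 FPKM in WT 1 and WT 2. KO 1 was the highest library and KO 2 the lowest, 2.04-fold apart, while the WT libraries differed 1.08-fold. The group means were 28.5 ± 13.8 FPKM in KO and 28.6 ± 1.54 FPKM in WT (SD, n = 2), and the log2 change of -0.09 ± 0.34 (SE, adjusted p = 0.901, limma) changed sign without KO 2, to 0.41.

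Among the markers of the pro-B stage and earlier, Bst1 showed the smallest spread within each group. Bst1 (ENSMUSG00000029082, chromosome 5, 43818885 to 43843986, plus strand) encodes the lipid-anchored ectoenzyme CD157, known as BP-3 on early B cells and also made by marrow stroma and myeloid cells. It was at 28.66 and 28.99 FPKM in KO 1 and KO 2, against 18.41 and 18.88 FPKM in WT 1 and WT 2. The replicates of each group lay within 1.03-fold of each other, and the KO libraries were above the WT libraries. The means of 28.8 ± 0.233 FPKM in KO and 18.6 ± 0.332 FPKM in WT (SD, n = 2) gave a fold of 1.55. The log2 change was 0.60 ± 0.13 (SE, 95% interval 0.27 to 0.93), with p-values of 0.00529 unadjusted and 0.294 adjusted in limma. Over the 13 alternative settings it lay between 0.59 and 1.08. Its sign was largely fixed in advance there. The filter and block settings keep the estimate, and with the groups separated, leaving out a library cannot turn it.

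Cd38, which encodes the related ectoenzyme CD38, begins 24566 bases after the end of Bst1 on the same strand and did not share its values. It stood at 12.06 and 6.66 FPKM in KO 1 and KO 2, against 13.84 and 16.19 FPKM in WT 1 and WT 2, so both KO libraries were below both WT libraries (log2 change -0.68 ± 0.28, SE, adjusted p = 0.423, limma). Of other sources of Bst1, the neutrophil list differed from the WT mean by a median of 0.46 (KO 1) and 1.48 (KO 2) in log2 units. Bst1 differed by 0.59 and 0.61. The monocyte and macrophage list differed by a median of -0.57 (KO 1) and 0.47 (KO 2), with 6 of its 13 genes positive and 7 negative in KO minus WT. Its sums were 3219 and 6045.9 FPKM in KO 1 and KO 2, against 2535.2 and 2425.9 FPKM in WT 1 and WT 2. The stromal and endothelial list summed to 20.3 and 31.6 FPKM in KO 1 and KO 2, against 23.3 and 22.4 FPKM in WT 1 and WT 2, with 5 of its 10 genes past the filter, the stromal receptor gene Lepr at 0.28 FPKM or lower in every library and the endothelial gene Emcn at 0.11 FPKM or lower. The collagen gene Col1a1 was at 0.4 and 9.91 FPKM in KO 1 and KO 2, against 0.84 and 0.34 FPKM in WT 1 and WT 2. Cdh5 was at 2.87 and 3.32 FPKM in KO 1 and KO 2, against 1.43 and 1.77 FPKM in WT 1 and WT 2. Pecam1 was at 14.57 and 9.74 FPKM in KO 1 and KO 2, against 15.5 and 18 FPKM in WT 1 and WT 2. The median difference of this list from the WT mean was -0.19 for KO 1 and 0.74 for KO 2 in log2 units. The part of these cells in the Bst1 values was not tested.

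Kit and Flt3, receptor tyrosine kinases for stem cell factor and FLT3 ligand, had similar patterns at low levels. Kit (ENSMUSG00000005672, chromosome 5, 75574916 to 75656722, plus strand) was at 6.09 and 8.73 FPKM in KO 1 and KO 2, against 6.38 and 5.24 FPKM in WT 1 and WT 2. Flt3 (ENSMUSG00000042817, chromosome 5, 147330741 to 147400489, minus strand) was at 3.45 and 4.83 FPKM in KO 1 and KO 2, against 2.87 and 2.16 FPKM in WT 1 and WT 2. KO 2 was the highest library for both genes, and the groups overlapped for Kit and not for Flt3. The log2 changes were 0.29 ± 0.21 for Kit and 0.54 ± 0.22 for Flt3 (SE, adjusted p = 0.548 and 0.408, limma). The root mean square distance between the mean-centred log2(FPKM + 1) values of Kit and Flt3 over 4 libraries was 0.129. Spn and Kit were as near, at 0.13, and Ptprc was at 0.143 from Spn and 0.146 from Kit, so the likeness was not limited to the receptor kinases.

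The ligands of these receptors were low or flat. Kitl, stem cell factor, was at 0.19 FPKM in both KO libraries, against 0.86 and 0.25 FPKM in WT 1 and WT 2, below the filter. Flt3l was at 3.73 and 4.01 FPKM in KO 1 and KO 2, against 3.57 and 3.6 FPKM in WT 1 and WT 2 (log2 change 0.09 ± 0.15, SE, adjusted p = 0.779, limma). Among genes of other cells that carry Kit, the mast cell proteases Cma1 and Tpsb2 reached at most 0.22 FPKM, and the basophil protease Mcpt8 stood at 28.15 and 21.6 FPKM in KO 1 and KO 2, against 26.7 and 32.9 FPKM in WT 1 and WT 2. Members of this list differed in direction, with 3 of 7 tested positive and 4 negative. Hdc was at 33.76 and 55.86 FPKM in KO 1 and KO 2, against 17.25 and 20.06 FPKM in WT 1 and WT 2. Fcer1a was at 4.11 FPKM in both KO libraries, against 2.66 and 3.23 FPKM in WT 1 and WT 2. Of the stem and progenitor list 3 of 9 genes passed the filter, and its sum was 20.3 and 30.2 FPKM in KO 1 and KO 2, against 20.2 and 18.6 FPKM in WT 1 and WT 2. Plasmacytoid dendritic cells, which carry Flt3, had 7 of 8 markers above both WT libraries in both KO libraries, where 19.7% of all genes were, with sums of 255 and 274 FPKM in KO 1 and KO 2, against 197 and 162 FPKM in WT 1 and WT 2. Their part in the Kit and Flt3 values was not tested.

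Cd93 (ENSMUSG00000027435, chromosome 2, 148436640 to 148443563, minus strand) encodes the C-type lectin-like receptor read by the AA4.1 antibody, carried by B cells through the immature stage. It was at 48.99 and 31.79 FPKM in KO 1 and KO 2, against 50.87 and 53.22 FPKM in WT 1 and WT 2. KO 1 was just below the WT libraries and KO 2 well below them. The log2 change was -0.39 ± 0.23 (SE, adjusted p = 0.502, limma). With KO 2 as the only KO library the change was -0.69 (adjusted p = 0.049, limma), and with KO 1 as the only one it was -0.09 (adjusted p = 0.647, limma). In both fits the WT pair alone supplies the spread.

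Il2ra and Cd2, which appear on large and small pre-B cells, were lowest in KO 2. Il2ra (ENSMUSG00000026770, chromosome 2, 11642807 to 11693193, plus strand) encodes CD25, the alpha chain of the interleukin 2 receptor. It stood at 2.93 and 0.9 FPKM in KO 1 and KO 2, against 3.99 and 5.65 FPKM in WT 1 and WT 2. The KO 2 value rests on about 78 fragments, with an exact Poisson 95% interval of 0.714 to 1.13 FPKM that covers counting error only. Both KO libraries were below both WT libraries, and the 3.26-fold gap between KO 1 and KO 2 was wider than that between KO 1 and either WT library. The means were 1.92 ± 1.44 FPKM in KO and 4.82 ± 1.17 FPKM in WT (SD, n = 2), a fold of 0.397. The log2 change of -1.08 ± 0.39 (SE, 95% interval -2.06 to -0.09) had an adjusted p of 0.385 in limma. Without KO 2 the change was -0.55 (adjusted p = 0.401, limma).

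The other chains of the interleukin 2 receptor did not share this pattern. Il2rb, the beta chain, was at 11.53 and 12.03 FPKM in KO 1 and KO 2, against 9.05 and 8.87 FPKM in WT 1 and WT 2 (log2 change 0.36 ± 0.13, SE, adjusted p = 0.387, limma). Il2rg, the gamma chain shared with the interleukin 7 receptor, was at 21.77 and 19.5 FPKM in KO 1 and KO 2, against 23.06 and 22.92 FPKM in WT 1 and WT 2 (adjusted p = 0.616, limma). Il2 was listed at 0 in every library.

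Cd2 (ENSMUSG00000027863, chromosome 3, 101275899 to 101287939, minus strand) encodes an adhesion receptor of lymphocytes that binds CD48 in the mouse. Its level was 8.45 and 3.49 FPKM in KO 1 and KO 2, against 8.25 and 12.32 FPKM in WT 1 and WT 2. KO 1 lay between the WT libraries, which themselves differed 1.49-fold, and KO 2 was below them. The log2 change was -0.77 ± 0.40 (SE, adjusted p = 0.468, limma). The ligand gene Cd48 was at 40.67 and 43.43 FPKM in KO 1 and KO 2, against 50.62 and 50.72 FPKM in WT 1 and WT 2 (adjusted p = 0.466, limma). T and NK cells also carry CD2. Their lists summed to 33 and 33.2 FPKM for T cells and 30 and 38.6 FPKM for NK cells in KO 1 and KO 2, against 27.8 and 30.7 FPKM for T cells and 32.2 and 26.5 FPKM for NK cells in WT 1 and WT 2. Members of the T cell list differed in direction. Cd4, also made by other blood cells, was at 10.11 and 16.51 FPKM in KO 1 and KO 2, against 8.99 and 7.92 FPKM in WT 1 and WT 2, while the T cell receptor chain gene Cd3g was at 0.85 and 0.38 FPKM, against 1.16 and 1.06 FPKM. On the log2 scale the list's median difference from the WT mean was 0.06 for KO 1 and -0.22 for KO 2. The part of these cells in the Cd2 values was not tested.

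**Figure D2:**
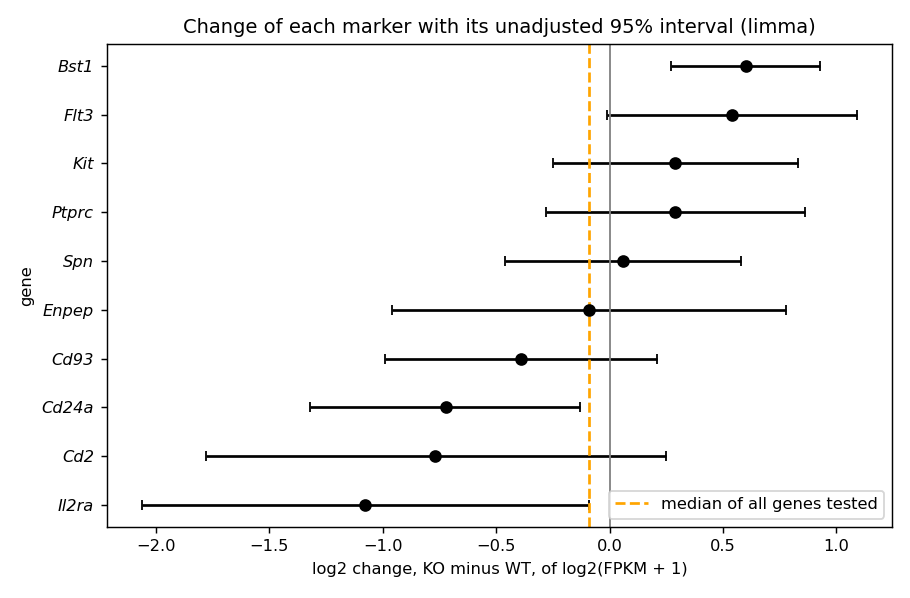
Log2 change of each marker, KO minus WT, on the log2(FPKM + 1) scale (horizontal axis), with the unadjusted 95% interval from limma and the median of all genes tested, -0.09, as a dashed line. The intervals of Bst1 (0.27 to 0.93), Cd24a (-1.32 to -0.13) and Il2ra (-2.06 to -0.09) leave out 0 before adjustment, and no marker passed after it.

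The order of the markers by level was similar in both groups. In KO the means ran Cd24a, Spn, Cd93, Ptprc, Bst1, Enpep, Kit, Cd2, Flt3 and Il2ra from high to low, and in WT Cd24a, Spn, Cd93, Ptprc, Enpep, Bst1, Cd2, Kit, Il2ra and Flt3. In WT, Ptprc (29.1 ± 2.36 FPKM) and Enpep (28.6 ± 1.54 FPKM) could not be separated beyond their spread (SD, n = 2), nor could Kit and Il2ra. In KO most of the order was unresolved. Within the mean ± SD each marker overlapped the next in the order, except Cd24a with Spn and Enpep with Kit. Scaled to the longest coding transcript in place of all exons, Ptprc moved to the second place in both groups and the other markers kept their order.

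Markers of later stages were lower relative to markers of earlier stages in KO 2. The ratio of Il2ra to Kit, both in FPKM, was 0.481 and 0.103 in KO 1 and KO 2, against 0.625 and 1.08 in WT 1 and WT 2. The ratio of Cd2 to Flt3 was 2.45 and 0.723 in KO 1 and KO 2, against 2.87 and 5.7 in WT 1 and WT 2. For both ratios each KO library was below each WT library. Il2ra to Flt3 was at 0.849 and 0.186 in KO 1 and KO 2, against 1.39 and 2.62 in WT 1 and WT 2. That separation was fixed in advance, since Il2ra was below and Flt3 above both WT libraries in both KO libraries. All of these ratios restate the marker levels given above and are no separate evidence. The ratio of Cd2 to Kit was 1.39 and 0.4 in KO 1 and KO 2, against 1.29 and 2.35 in WT 1 and WT 2, so the groups overlapped for this pairing. The ratio of HSA to CD43 transcripts, Cd24a to Spn, was 10.6 and 5.85 in KO 1 and KO 2, against 13.1 and 13.9 in WT 1 and WT 2. The ratio of BP-1 to CD43 transcripts, Enpep to Spn, was 0.701 and 0.246 in KO 1 and KO 2, against 0.469 and 0.457 in WT 1 and WT 2, with the KO libraries on either side of the WT libraries. Spn, Kit and Flt3 are also made by other blood cells, whose part in these ratios was not tested.

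**Figure D3:**
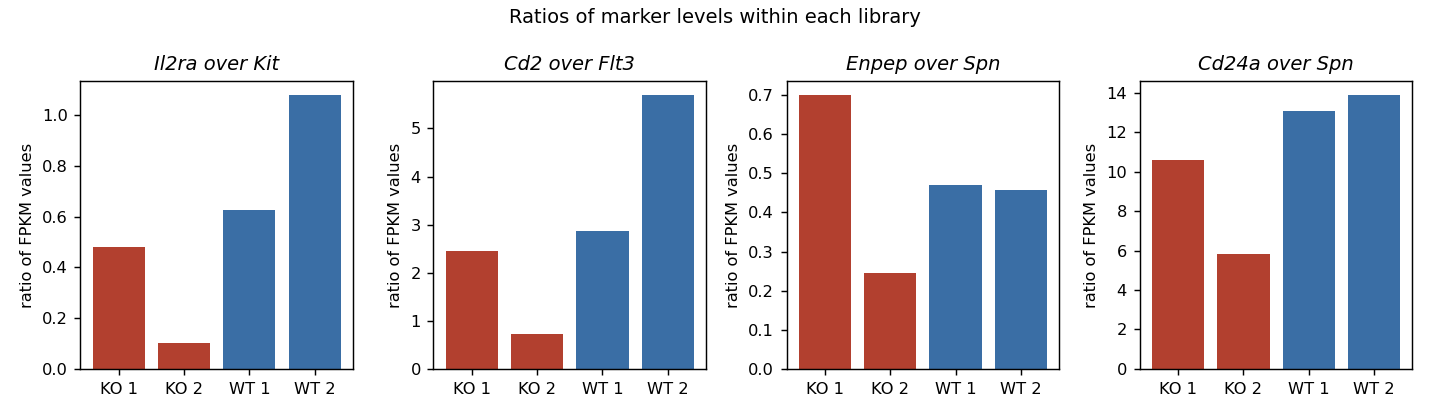
Ratios of FPKM values of marker pairs within each library (vertical axes, starting at 0), with bars for KO 1, KO 2, WT 1 and WT 2. KO 2 has the lowest value of all 4 ratios, for example 0.103 for Il2ra over Kit, and KO 1 has the highest Enpep over Spn, 0.701.

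The KO libraries differed from each other for most markers. KO 2 was further from the WT mean than KO 1 for all 10 markers, against 73% of all genes tested. KO 2 was outside the WT range for every marker, while KO 1 was inside it for 3. For 2 markers, Spn and Enpep, the WT mean fell between KO 1 and KO 2, as it did for 31.5% of all genes.

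**Figure D4:**
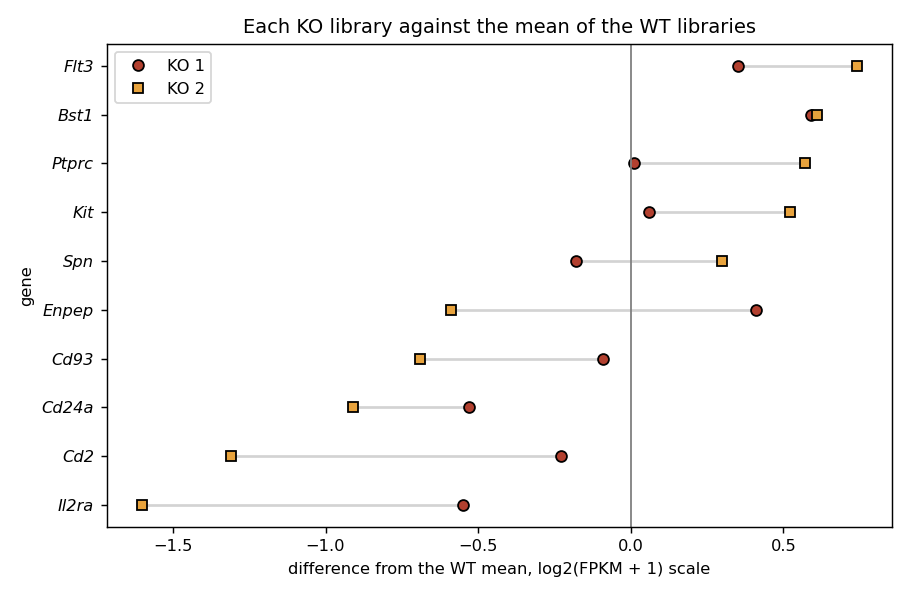
Difference of KO 1 (circles) and KO 2 (squares) from the mean of the WT libraries, on the log2(FPKM + 1) scale, for each marker. The points coincide for Bst1 (0.59 and 0.61) and are furthest apart for Cd2 (-0.23 and -1.31) and Il2ra (-0.55 and -1.6).

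Because B-lineage genes were lower in KO 2, the markers were also scaled to the median of 21 B-lineage genes in each library. This moved the median log2 change of all genes tested to 0.328, against -0.094 without it, and the markers are to be read against that shift. Bst1 was then at 24.5 and 47.4 in KO 1 and KO 2, against 16.4 and 15 in WT 1 and WT 2, in scaled FPKM. Enpep was at 32.7 and 30.6 in KO 1 and KO 2, against 26.4 and 21.8 in WT 1 and WT 2, and the KO libraries no longer fell on either side of the WT libraries. Cd24a was at 493 and 727 in KO 1 and KO 2, against 739 and 667 in WT 1 and WT 2, so the groups overlapped on this scale. Il2ra was at 2.51 and 1.47 in KO 1 and KO 2, against 3.55 and 4.49 in WT 1 and WT 2, with both KO libraries below both WT libraries, as without the scaling. Cd2 was at 7.23 and 5.7 in KO 1 and KO 2, against 7.34 and 9.78 in WT 1 and WT 2, so the groups, which overlapped in FPKM, were separated on this scale, narrowly for KO 1 and WT 1. On this scale the groups did not overlap for 6 markers, against 39.2% of all genes. Of these, 4 (Ptprc, Enpep, Bst1 and Flt3) were above both WT libraries in both KO libraries and 2 (Il2ra and Cd2) below, where 35.4% and 3.82% of all genes were. No marker passed the test with this scaling either, and the adjusted p of Bst1 was 0.358 in limma.

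Other surface proteins used to stage early B cells were taken from fixed lists. For the progenitor stage, 0 of 8 tested genes passed, 4 had a positive change, and the median log2 change was 0.01. Ly6a (Sca-1) was at 12 and 22.55 FPKM in KO 1 and KO 2, against 11.82 and 10.82 FPKM in WT 1 and WT 2, and the adhesion receptor gene Cd44 at 35.59 and 57.39 FPKM, against 31.42 and 32.69 FPKM. Il7r, the interleukin 7 receptor that early B cells need, was at 53.41 and 23.2 FPKM in KO 1 and KO 2, against 57.3 and 68.82 FPKM in WT 1 and WT 2. Ly6d, which marks B-lineage-biased progenitors, was at 92.06 and 71.63 FPKM in KO 1 and KO 2, against 107.26 and 112 FPKM in WT 1 and WT 2. Of 10 pro-B and pre-B surface genes 0 passed and 7 were negative, near the 61.7% of all genes tested, and their median was -0.27. The tetraspanin gene Cd9 was at 45.22 and 89.09 FPKM in KO 1 and KO 2, against 38.64 and 35.16 FPKM in WT 1 and WT 2. Cd79a, a signalling chain of the B cell receptor, was at 193.59 and 96.8 FPKM in KO 1 and KO 2, against 436.24 and 435.96 FPKM in WT 1 and WT 2. Its partner Cd79b was at 196.98 and 93.43 FPKM in KO 1 and KO 2, against 244.9 and 276.68 FPKM in WT 1 and WT 2.

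Of the 3 lists of stage markers, that of maturing B cells had the lowest median. Of 10 tested 8 were below both WT libraries in both KO libraries, where 31.7% of all genes were, and their median log2 change was -0.95, against -0.09 over all genes. In this list 1 gene passed, Fcer2a (CD23), at 0.22 and 0.17 FPKM in KO 1 and KO 2, against 4.03 and 3.82 FPKM in WT 1 and WT 2 (adjusted p = 0.0476, limma). Without KO 2, WT 1 or WT 2 its adjusted p was 0.213, 0.16 or 0.125 (limma), with log2 changes between -2.07 and -2.01. Ms4a1 (CD20) was at 1.66 and 0.6 FPKM in KO 1 and KO 2, against 11.01 and 12.32 FPKM in WT 1 and WT 2 (adjusted p = 0.0701, limma). Ighd, the constant region of IgD, was at 27.35 and 7.93 FPKM in KO 1 and KO 2, against 48.16 and 51.23 FPKM in WT 1 and WT 2 (adjusted p = 0.37, limma). Cd72, an inhibitory coreceptor, was at 66.04 and 27.27 FPKM in KO 1 and KO 2, against 92.04 and 104.2 FPKM in WT 1 and WT 2. On the plasma cell list the KO sums were also below WT. They were 222 and 137 FPKM in KO 1 and KO 2, against 629 and 560 FPKM in WT 1 and WT 2. A large part of the WT sums was Igha and Jchain. Of 8 tested 6 were below both WT libraries in both KO libraries, where 31.7% of all genes were. The test called 2 of the 8 lower, against 0.203% of all genes. Their median log2 change was -0.90, against -0.09 over all genes. Igha, the constant region of IgA, was at 0.33 and 0.2 FPKM in KO 1 and KO 2, against 304.55 and 216.96 FPKM in WT 1 and WT 2 (adjusted p = 0.00135, limma). Jchain, which joins IgA and IgM units, was at 0.25 and 0.45 FPKM in KO 1 and KO 2, against 105.85 and 91.45 FPKM in WT 1 and WT 2 (adjusted p = 0.00135, limma). Tnfrsf17, the plasma cell receptor BCMA, was listed at 0 in both KO libraries, against 2.17 and 1.79 FPKM in WT 1 and WT 2. Xbp1 was higher, at 47.08 and 55.4 FPKM in KO 1 and KO 2, against 45.61 and 39.29 FPKM in WT 1 and WT 2. Mzb1 was flat (log2 change -0.02), and its groups overlapped. The part of such cells in the values of the maturing list was not tested.

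Among partners of the markers 0 of 14 tested passed and 10 were negative, against 61.7% of all genes, with a median of -0.14. Siglecg, an inhibitory receptor that binds CD24, was at 46.25 and 29.69 FPKM in KO 1 and KO 2, against 63.73 and 70.22 FPKM in WT 1 and WT 2 (adjusted p = 0.347, limma). Both KO libraries were below both WT libraries for Siglecg, as for Cd24a and for 31.7% of all genes tested. Csk, a kinase that opposes CD45 on Src-family kinases, was at 99.86 and 67.81 FPKM in KO 1 and KO 2, against 104.13 and 104.63 FPKM in WT 1 and WT 2 (adjusted p = 0.529, limma). Blk, one of those Src-family kinases, was at 55.31 and 20.76 FPKM in KO 1 and KO 2, against 68.28 and 79.4 FPKM in WT 1 and WT 2.

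The genes most like the 3 markers with the largest changes were sought among the 8192 genes averaging 5 FPKM or more, by root mean square distance between mean-centred log2(FPKM + 1) values over 4 libraries. Many genes share a pattern over so few libraries. Nearest to Il2ra were Ighm, S1pr1 and Igkj2, at distances of 0.0685, 0.0761 and 0.0883. S1pr1, the receptor for the egress signal sphingosine 1-phosphate, was at 6.45 and 2.24 FPKM in KO 1 and KO 2, against 7.5 and 9.96 FPKM in WT 1 and WT 2. Nearest to Cd2 were Ccr7, Serinc5 and Polm (0.0851, 0.0927 and 0.0973), and Ccr7, a homing receptor, was at 14.01 and 6.32 FPKM in KO 1 and KO 2, against 15.74 and 19.65 FPKM in WT 1 and WT 2. Nearest to Cd24a were Rps3a1, Myef2 and Nek2 (0.0479, 0.0532 and 0.0542), and Nek2, a centrosomal kinase, was at 23.43 and 16.09 FPKM in KO 1 and KO 2, against 32.05 and 33.69 FPKM in WT 1 and WT 2.

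Promoter windows, the 250 bases before a start site in RefSeq on GRCm38.p6, were matched for 6 of the 10 markers (Ptprc, Spn, Enpep, Kit, Flt3 and Il2ra). The windows of Il2ra and Flt3 are shown because these markers lay furthest apart in KO 2, at -1.6 and 0.74 from the WT mean on the log2 scale, and yet hold the same short motif. Capitals mark the ETS core, GGAAGT or its reverse complement ACTTCC, searched on both strands and chosen, with 5 other motifs, after the marker values were known. Il2ra is chr2:11642542-11642791 on the plus strand and Flt3 is chr5:147400490-147400739 on the minus strand.
Il2ra: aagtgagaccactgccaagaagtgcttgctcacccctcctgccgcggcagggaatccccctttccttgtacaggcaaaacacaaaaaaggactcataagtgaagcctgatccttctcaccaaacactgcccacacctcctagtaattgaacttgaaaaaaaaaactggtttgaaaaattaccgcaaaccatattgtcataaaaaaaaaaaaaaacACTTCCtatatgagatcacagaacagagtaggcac
Flt3: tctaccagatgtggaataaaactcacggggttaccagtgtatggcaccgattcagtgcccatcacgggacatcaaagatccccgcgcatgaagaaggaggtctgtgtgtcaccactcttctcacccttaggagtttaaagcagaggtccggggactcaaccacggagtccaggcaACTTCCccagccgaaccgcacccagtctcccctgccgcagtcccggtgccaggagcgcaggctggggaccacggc
The match begins 35 bases before the start of Il2ra and 75 bases before that of Flt3. The ETS core was found in 4 of the 6 matched markers, also in Ptprc and Spn, and in 19.7% of 32851 windows of all genes. These shares are unlike measures, since a marker could match in any of its windows, and Ptprc and Kit had 2 each. The E-box letters (CAGGTG in 17.2% and CAGCTG in 13% of all windows) and the RUNX letters (TGTGGT in 14%) matched in 0 of the 6 markers. The GATA letters AGATAA (9.99% of all windows) matched in Ptprc, and the TATA letters TATAAA (12.4%) in Ptprc and Enpep. The markers with the ETS core lay on both sides of WT in KO 2, and a match describes letters only.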

How the data were processed

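The authors deposited 1 FPKM value per gene and library, with 2 decimals (FPKM per the file headers). The submitters' processing notes name mm9. For the aligner, the counter and the annotation nothing is stated in these sources. Symbols were matched for 55394 of 55573 identifiers, and coordinates and lengths come from GENCODE M21 (GRCm38), because the files hold no coordinates. Fragments were estimated from FPKM steps, since FPKM times exon length fell within 0.15 of a whole number of fragments for 99.4% to 99.6% of low values, where chance gives 30%. No library was a copy of its replicate: chi-square over genes, divided by its degrees of freedom, was 61.4 for the KO pair and 8.41 for the WT pair. Groups were compared with limma 3.58.1 in R 4.3.3, with a mean-variance trend. The fit was tested on simulated data with the same spread in both groups. That test does not cover the wider spread of the KO pair. Log2(FPKM + 1) understates changes of low genes. Markers of the panel were all named, and other genes by fixed lists, by size of change and by likeness. Members and lists were chosen with earlier results of these data known. Alternatives changed the pseudocount, the filter, the scaling, the block, the test (voom) and the libraries used. No set test was run.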

Additional observations from a re-analysis of the deposited data

How the results depend on the processing

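Across 13 alternative settings the markers gave 128 values, of which 122 kept their direction and side of the threshold and 2 came to an adjusted p under 0.05, Cd24a and Cd93 without KO 1, in a fit of KO 2 alone whose spread is that of the WT pair. The direction turned in 4. It could not turn under the filter and block settings, which keep the log2 change of each marker tested as in the main fit. Each fit that leaves out 1 library assumes that the lone library of its group varies like the other pair. Without KO 2, Spn was at -0.18 and Enpep at 0.41 on the log2 scale, and over the 4 settings that leave out 1 library they ranged from -0.18 to 0.30 and from -0.59 to 0.41. With B-lineage scaling, Enpep was at 0.38 and Cd93 at 0.091. Il2ra and Flt3 had no value with the filter at 5 FPKM.

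Over all genes 0 were called higher and 27 lower. The higher count was 1 with the filter at 5 FPKM, 7 with the replicate block, 102 with B-lineage scaling and between 0 and 563 when 1 library was left out. The lower count was 15 with a pseudocount of 0.1, 0 with no filter, 61 with the replicate block, 137 with B-lineage scaling, 9 with voom on estimated fragments and between 0 and 385 when 1 library was left out (385 without KO 1, 0 without KO 2, 14 without WT 1). The cause was not tested. The same-numbered libraries deviated in opposite directions (r = -0.15 across genes), so a crossed replicate block, chosen after seeing the data, was added, and it called 46 higher and 167 lower genes. Neither pairing changed the call of a marker, and the adjusted p of Fcer2a was 0.0505 under the replicate block and 0.00438 under its crossed form. Fcer2a also missed the threshold with a pseudocount of 0.1, no filter, quantile normalization and median centring (adjusted p between 0.0631 and 0.306). Of 14 summed lists, 7 moved by more than the spread between libraries when summarised by the median of their members, and the progenitor, monocyte and basophil lists then differed in sign.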

Other observations

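Relatives of the markers were examined by family. Of 11 tested 0 passed in limma and 8 were negative in KO minus WT, against 61.7% of all genes tested, with a median log2 change of -0.12. Thbd, thrombomodulin, a lectin-like relative of CD93, was at 9.75 and 7.21 FPKM in KO 1 and KO 2, against 14.18 and 16.1 FPKM in WT 1 and WT 2, so both KO libraries were below both WT libraries (log2 change -0.78 ± 0.19, SE, adjusted p = 0.315, limma). The relatives of Cd2 in the SLAM family went both ways. Slamf7 was at 36.43 and 19 FPKM in KO 1 and KO 2, against 40.75 and 47.21 FPKM in WT 1 and WT 2, and Slamf6 at 14.07 and 9.6 FPKM, against 14.77 and 17.03 FPKM. Cd244a, an NK and myeloid receptor for CD48, was at 2.78 and 3.63 FPKM in KO 1 and KO 2, against 2.41 FPKM in both WT libraries. Ptprcap, which encodes a CD45-associated protein, was listed at 0 in KO 1, WT 1 and WT 2 and at 0.08 FPKM in KO 2.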
